A study of Arabidopsis thaliana with 9 samples.

Results

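Oleosins are the proteins that coat the oil bodies of plant seeds, and 7 of their genes were followed here in siliques of Arabidopsis thaliana: OLEO1 (AT4G25140), OLEO2 (AT5G40420), OLEO3 (AT5G51210), OLEO4 (AT3G27660), OLEO5 (AT3G01570), AT3G18570 and AT1G48990. The genes were taken by locus identifier from a table of 33602 genes, in which all 7 were present. They were chosen as members of the seed oleosin family with earlier results of these data known, and the rule itself uses no measured value. The deposited table names OLEO4 as OL2 and OLEO3 as OL3, so the locus identifiers settle which gene is meant.

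An oil body is a droplet of triacylglycerol, the storage oil, inside a single layer of phospholipid. An oleosin is a small protein with a long water-repelling hairpin that sinks into the oil and is turned by a proline-rich knot. Its 2 ends lie on the surface, and the coat keeps neighbouring droplets from fusing while the seed dries and germinates. OLEO1 to OLEO5 are known as oleosins of the maturing seed, with OLEO1 the main one, and loss of OLEO1 is known to enlarge the oil bodies. AT3G18570 and AT1G48990 belong to a branch of the family known from seeds and developing pollen grains.

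Siliques, the pods with the developing seeds inside, were harvested 12 days after flowers opened from greenhouse plants of the Columbia background. Wild type plants were set beside knockout plants without a functional SCL15 gene, called the scl15 line here, and plants of the Napin:SCL15 line, in which SCL15 is overexpressed in seeds. Each was represented by 3 biological replicates. Napin is a seed storage protein whose promoter is active in the maturing embryo, and SCL15 is a GRAS-family regulator known to interact with the histone deacetylase HDA19. Whole siliques were used, so seed, pod wall and seed coat RNA were measured together, and the number of independent lines behind each genotype is not given. The comparisons address how the oleosin genes differ between plants with less, normal and excess SCL15.

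Levels are given as TPM, a length-corrected share of all transcripts of a library, so that genes may be compared with each other. Every library summed to 1000000 TPM, and its sequencing depth is unknown from these values. The 12S and 2S storage protein genes alone took 31.0% of the total in wild type, 32.2% in the scl15 line and 41.9% in the Napin:SCL15 line, and a larger share of these few genes lowers the TPM of all others. The number of genes above 0 ran from 19679 to 21855 over the libraries. The scl15 replicate 3 and Napin:SCL15 replicate 3 had the fewest such genes of their groups (20707 and 19679), and they were also left out together. SCL15 itself measured 14.4, 16.2 and 10.7 TPM in the wild type libraries, 6.31, 6.39 and 4.82 TPM in the scl15 line and 526, 569 and 556 TPM in the Napin:SCL15 line. The groups did not overlap, and the scl15 line libraries kept some reads assigned to the gene. Where the gene is interrupted is not given, so these reads do not tell a partial transcript from a whole one.

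The oleosin genes lie apart from each other on 4 chromosomes, and no pair of them shares a long identical stretch of coding sequence. In TAIR10.1, OLEO1 occupies chr4:12900430-12901577 on the plus strand, OLEO2 chr5:16173340-16174783 on the minus strand and OLEO3 chr5:20820068-20820944 on the plus strand. OLEO4 lies at chr3:10243244-10245023 on the plus strand, and OLEO5 at chr3:221939-222827 and AT3G18570 at chr3:6395790-6396624 on the minus strand. AT3G18570 and AT1G48990 are annotated with 1 exon, and the other 5 genes have 2 coding exons. Coding lengths run from 426 bases in OLEO3 to 600 bases in OLEO2. Across the 21 pairs of genes, between 54.0% and 74.2% of aligned coding bases were identical. OLEO1 and OLEO3 were the closest pair at 74.2%, followed by OLEO2 and OLEO4 at 70.6% and by AT3G18570 and AT1G48990 at 70.3%. The longest identical stretch that the coding sequences of any pair shared, at any position, was 17 bases.

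The upstream sequences of 4 of the genes are shown because they form contrasts that recur in the values below: OLEO1 and OLEO3 are the closest pair by coding sequence and moved in opposite directions, and OLEO4 and AT3G18570 are the genes that rose in the Napin:SCL15 line. Each is the 250 bases before the annotated start of the gene, read 5′ to 3′ on the gene's own strand from the RefSeq TAIR10.1 genome, and capitals mark 3 motifs on either strand. These are the RY motif CATGCA, which B3-domain regulators of seed maturation such as ABI3, FUS3 and LEC2 are known to bind, the G-box CACGTG, and ACGTG, the core of the abscisic acid response element (ABRE) that bZIP regulators such as ABI5 are known to bind. Every CACGTG holds ACGTG on both strands, and the reverse complement of CATGCA reads TGCATG. The stretches are chr4:12900180-12900429 (plus strand) for OLEO1, chr5:20819818-20820067 (plus) for OLEO3, chr3:10242994-10243243 (plus) for OLEO4 and chr3:6396625-6396874 (minus) for AT3G18570.
OLEO1: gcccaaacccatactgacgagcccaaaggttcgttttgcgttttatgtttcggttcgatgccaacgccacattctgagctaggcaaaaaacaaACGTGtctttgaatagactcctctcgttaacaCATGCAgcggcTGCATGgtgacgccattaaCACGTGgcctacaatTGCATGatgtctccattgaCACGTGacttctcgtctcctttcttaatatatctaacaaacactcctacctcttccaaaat
OLEO3: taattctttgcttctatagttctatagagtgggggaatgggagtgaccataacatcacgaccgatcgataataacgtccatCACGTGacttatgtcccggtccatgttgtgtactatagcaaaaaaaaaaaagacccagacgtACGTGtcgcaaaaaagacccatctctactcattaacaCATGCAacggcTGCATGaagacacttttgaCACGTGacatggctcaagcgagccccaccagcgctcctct
OLEO4: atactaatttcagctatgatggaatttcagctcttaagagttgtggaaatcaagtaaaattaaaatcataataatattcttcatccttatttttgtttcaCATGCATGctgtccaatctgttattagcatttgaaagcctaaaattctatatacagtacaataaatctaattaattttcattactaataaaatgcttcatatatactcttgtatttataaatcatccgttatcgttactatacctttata
AT3G18570: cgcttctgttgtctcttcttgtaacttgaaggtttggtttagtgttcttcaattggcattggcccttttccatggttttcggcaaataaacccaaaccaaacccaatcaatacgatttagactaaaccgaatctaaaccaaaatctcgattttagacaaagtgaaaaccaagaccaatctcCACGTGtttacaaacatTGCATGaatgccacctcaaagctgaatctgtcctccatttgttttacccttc

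Motifs were searched in 6 of the genes, all but AT1G48990. Each of these 6 had an RY motif in the window from 250 bases before to 50 bases after the annotated start, against 8.73% of the windows of 16203 tested genes. The G-box was found in 3 of 6 genes (9.62% of tested genes) and the ABRE core in 4 of 6 (28.9% of tested genes). OLEO2 and OLEO4 held RY motifs and neither of the other motifs in this window. OLEO1 and OLEO3, which differed in opposite directions between the Napin:SCL15 line and the scl15 line, both held RY motifs and 2 G-boxes. The start of OLEO4 is annotated 607 bases before its start codon, in contrast to 43 to 103 bases for the other 5. With the 300 bases before the start codon in place of this window, a choice made after seeing the data, the RY motif was again in 6 of 6 genes (7.23% of tested genes) and the ABRE core in 5 of 6 (25.2%). The G-box was again in 3 of 6 (7.73%). OLEO4 held 1 ABRE core match in this stretch, and OLEO2 held none. A match of letters is a description and not a bound site.

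**Figure D1:**
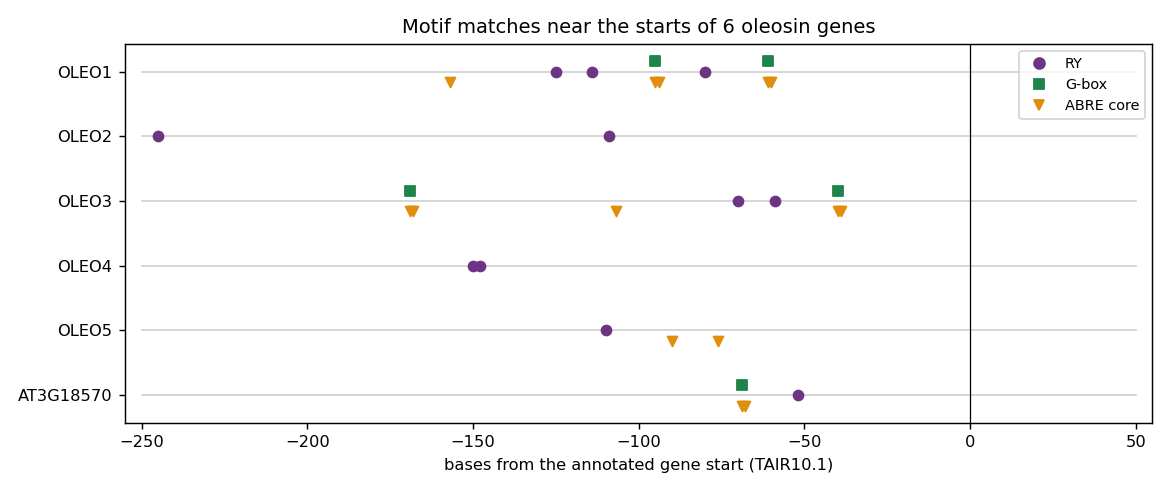
Positions of RY, G-box and ABRE core matches on either strand (first base of each match) along the window from 250 bases before to 50 bases after the annotated start of 6 oleosin genes, in bases from that start. Each of the 6 genes has at least 1 RY match, while OLEO2 and OLEO4 have no G-box or ABRE core match here.

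The levels of the 7 genes spanned 2 orders of magnitude, and OLEO1 led in every library. In wild type, OLEO1 averaged 19521 ± 1686 TPM (SD, n = 3), which placed it 7th among all genes in each of the 3 libraries. OLEO2 and OLEO4 followed at 4807 ± 328 and 4479 ± 284 TPM, then OLEO5 at 2242 ± 395 TPM and OLEO3 at 744 ± 159 TPM. The seed and pollen branch was lowest, with 216 ± 32.1 TPM for AT1G48990 and 164 ± 14.7 TPM for AT3G18570. Neighbours in this order did not overlap between libraries of a group, with 2 exceptions. OLEO2 and OLEO4 overlapped in wild type and in the Napin:SCL15 line, where OLEO4 had the higher mean, and were apart only in the scl15 line, with OLEO2 higher. AT1G48990 was above AT3G18570 in wild type and scl15 without overlap, while in the Napin:SCL15 line the means stood the other way and the libraries overlapped.

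**Figure D2:**
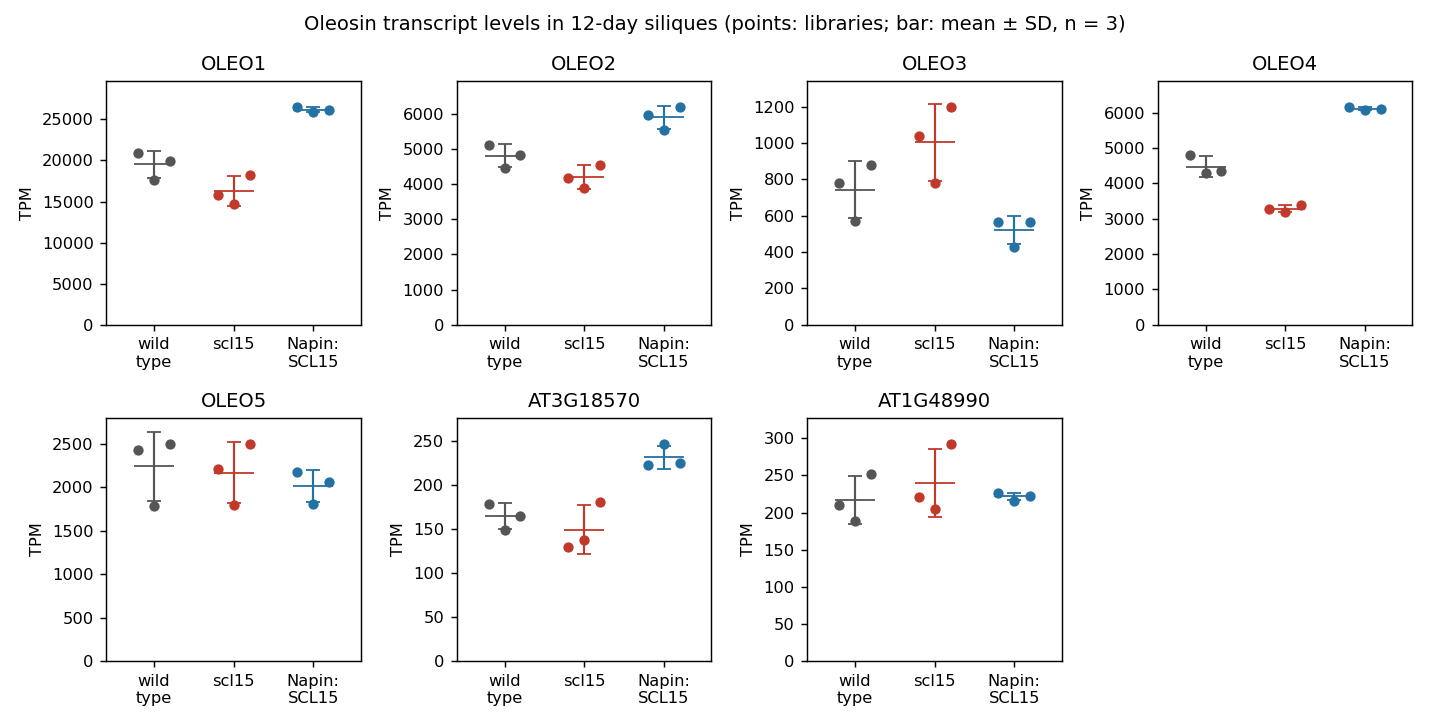
Levels of the 7 oleosin genes in TPM (vertical axes from 0, a separate scale for each gene) in wild type, scl15 and Napin:SCL15 siliques; points are libraries, and bars are the mean ± SD of 3 libraries. OLEO1, OLEO2, OLEO4 and AT3G18570 have their highest libraries in the Napin:SCL15 line, and OLEO3 has its lowest there.

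Summed over the 7 genes, oleosin transcripts were highest in the Napin:SCL15 line and lowest on average in the scl15 line. The sum averaged 32173 ± 2764 TPM for wild type (SD, n = 3), 27281 ± 2876 TPM in the scl15 line and 41178 ± 866 TPM in the Napin:SCL15 line, or 3.22%, 2.73% and 4.12% of all transcripts. The Napin:SCL15 libraries (40190.3 to 41810.1 TPM) lay above every other library, whereas the scl15 line (24625 to 30335 TPM) and wild type (29110.4 to 34483 TPM) libraries overlapped. Relative to the summed 12S and 2S storage protein transcripts, the oleosins measured 0.104 in wild type, 0.0848 in the scl15 line and 0.0985 in the Napin:SCL15 line. By this ratio the Napin:SCL15 libraries (0.0895 to 0.103) overlapped with wild type (0.0976 to 0.109), and the scl15 line libraries (0.0751 to 0.0952) were below wild type. In whole siliques, fewer cells of a type and less RNA per cell cannot be told apart.

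Tests were run with limma on log2(TPM + 1) across the 16555 genes that averaged 1 TPM or more, all 7 oleosins among them, and a gene counted as changed at an adjusted p (Benjamini-Hochberg over all genes tested) below 0.05. Fold changes below are log2 values from this fit with their standard error (SE), and both SCL15 lines share the wild type libraries.

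In this fit, OLEO4 was the one oleosin that fell in the scl15 line, and no oleosin rose. Of all genes tested, 15.5% changed in this comparison, 9.18% upward and 6.31% downward. OLEO4, an oleosin of the maturing seed, measured 4805, 4289 and 4343 TPM in wild type and 3271, 3188 and 3384 TPM in the scl15 line. All scl15 libraries were below all wild type libraries, and the log2 fold change was -0.45 (SE 0.14, adjusted p = 0.0427). The call was a narrow one: it ended when any of 8 of the 9 libraries was left out, all but Napin:SCL15 replicate 2 (adjusted p 0.0609 to 0.174, with log2 fold changes of -0.48 to -0.40), and held in 7 of 20 other settings in all. Groups that do not overlap were found for 33% of all genes in this comparison.

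The other 6 oleosins did not pass the test in the scl15 line. OLEO1, the main oleosin, measured 20956, 17664 and 19942 TPM in wild type and 15821.5, 14645 and 18236 TPM in the scl15 line, with 1 scl15 library inside the wild type range, and its log2 fold change was -0.27 (SE 0.19, adjusted p = 0.403). OLEO2 measured 5117, 4463 and 4840.3 TPM in wild type and 4186, 3876 and 4545 TPM in the scl15 line. One of its scl15 libraries was likewise inside the wild type range, and the estimated log2 difference was -0.19 (SE 0.15, adjusted p = 0.433). OLEO3 had a positive estimate in contrast to these, at 779.5, 570.2 and 882 TPM in wild type and 1038, 779 and 1198 TPM in the scl15 line. The OLEO3 groups overlapped through scl15 replicate 2, and the log2 fold change was 0.43 (SE 0.19, adjusted p = 0.15). Without that library it was 0.61 with an adjusted p of 0.0405. With the replicate number as a block in the fit, OLEO3 passed the test as higher (adjusted p = 0.00513 with limma). The labels do not say that libraries of the same number belong together. OLEO5, AT3G18570 and AT1G48990 had log2 fold changes of -0.04, -0.15 and 0.14 (adjusted p 0.899, 0.515 and 0.581 with limma), and their groups overlapped. The median over the 7 oleosins was -0.15, beside 0.10 over all genes tested.

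In the same fit, OLEO4 and AT3G18570 rose in the Napin:SCL15 line and no oleosin fell. Of all genes tested, 25.1% changed, 1.68% upward and 23.4% downward. OLEO4 measured 6159.8, 6086 and 6106 TPM against 4805, 4289 and 4343 TPM in wild type. Every Napin:SCL15 library was above every wild type library, and the log2 fold change was 0.45 (SE 0.14, adjusted p = 0.0303). AT3G18570, of the seed and pollen branch, measured 179, 149 and 165 TPM in wild type and 223, 246 and 225 TPM in the Napin:SCL15 line. Its groups were also apart, and the estimated log2 difference was 0.49 (SE 0.13, adjusted p = 0.0179). The OLEO4 call ended without any of the 3 wild type or the 3 Napin:SCL15 libraries (adjusted p 0.0572 to 0.0876), and the AT3G18570 call ended without wild type replicate 2 (log2 0.43, adjusted p = 0.0643) or Napin:SCL15 replicate 2 (0.45, adjusted p = 0.0681).

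OLEO1 and OLEO2 were higher in every Napin:SCL15 library than in any wild type library without passing the test. OLEO1 measured 26497.5, 25851 and 26167 TPM in the Napin:SCL15 line, and its log2 fold change against wild type was 0.43 (SE 0.19, adjusted p = 0.116). OLEO2 measured 5962, 5549 and 6187 TPM, and the estimated log2 difference was 0.30 (SE 0.15, adjusted p = 0.151). Groups without overlap were found for 43% of all genes in this comparison. OLEO3 measured 565, 429.8 and 568 TPM, below every wild type library, and its log2 fold change was -0.50 (SE 0.19, adjusted p = 0.0677). That estimate passed the test without wild type replicate 2 (log2 -0.68, adjusted p = 0.0264) and without scl15 replicate 2, which enters only through the shared spread (-0.50, adjusted p = 0.0411). With the replicate number as a block in the fit, OLEO3 also passed as lower (-0.50, adjusted p = 0.00191 with limma). OLEO5 and AT1G48990 had log2 fold changes of -0.14 and 0.04 (adjusted p 0.555 and 0.84 with limma), and their groups overlapped.

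The median gene was -0.28 on the log2 scale in this comparison, and the median oleosin was 0.30. Scaling the libraries by median ratio, which brings the median gene close to 0, gave 539 genes higher and 594 lower in place of 278 and 3871. Under this scaling OLEO2 also passed the test (log2 0.63, adjusted p = 0.037), OLEO1 had an estimate of 0.76 (adjusted p = 0.0656), and OLEO3 had one of -0.17 (adjusted p = 0.674). In the scl15 line the same scaling gave 991 genes higher and 1292 lower in place of 1519 and 1045, and OLEO4 fell by 0.55 (adjusted p = 0.0346).

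The direct comparison of the Napin:SCL15 line with the scl15 line gave the widest differences among the oleosins: 4 of 7 were higher, OLEO3 was lower, and OLEO5 and AT1G48990 did not pass the test. Of all genes tested, 49.2% changed in this comparison, 6.16% upward and 43.1% downward. OLEO4 had the largest upward difference, 0.90 (SE 0.14, adjusted p = 1.62e-04) on the log2 scale, and AT3G18570 differed by 0.64 (SE 0.13, adjusted p = 0.00154). Both calls held under all 20 other settings. OLEO1 differed by 0.69 (SE 0.19, adjusted p = 0.00888) and OLEO2 by 0.49 (SE 0.15, adjusted p = 0.014). Without a filter on low values these calls ended (adjusted p = 0.187 for OLEO1 and 0.0832 for OLEO2), and that of OLEO2 ended also with quantile normalization (log2 0.38, adjusted p = 0.0572) and with both replicates 3 left out (0.51, adjusted p = 0.0504). No single library ended any of the 5 calls.

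OLEO3 was the exception in direction, with a difference of -0.94 (SE 0.19, adjusted p = 0.0013) between the Napin:SCL15 line and the scl15 line. All 3 Napin:SCL15 libraries (429.8 to 568 TPM) were below all 3 scl15 libraries (779 to 1198 TPM), a separation found for 56.7% of all genes in this comparison. With median-ratio scaling the estimate was -0.50 (adjusted p = 0.0682), and its sign was negative under every setting run. OLEO5 and AT1G48990 had estimates of -0.10 and -0.10 (adjusted p 0.652 and 0.599 with limma). Both turned positive with median-ratio scaling (0.34 each) and without scl15 replicate 3 (0.011 and 0.055). With median-ratio scaling 2204 genes were higher and 2398 lower in this comparison, in place of 1019 and 7127.

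**Figure D3:**
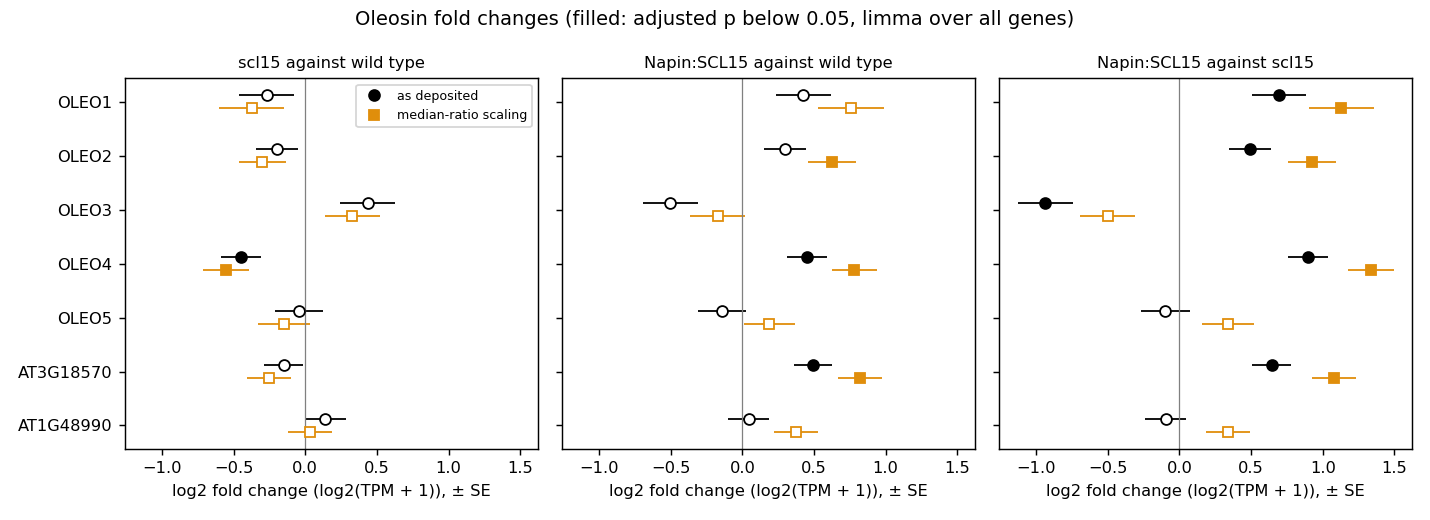
Log2 fold changes of the 7 oleosins (horizontal axis, on log2(TPM + 1), with the SE as bars) in the 3 comparisons; circles are TPM as deposited, squares are after median-ratio scaling, and filled symbols have an adjusted p below 0.05. OLEO4 is filled in all 3 panels under both scalings, and OLEO3 lies opposite to OLEO1, OLEO2 and OLEO4 in each panel.

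Because each gene's share within the oleosin total does not depend on the scaling of the library, the make-up of the coat transcripts was compared directly. OLEO1 made up 60.7% of oleosin transcripts in wild type, 59.5% in the scl15 line and 63.6% in the Napin:SCL15 line. OLEO3 went from 2.30% in wild type to 3.66% in the scl15 line and 1.26% in the Napin:SCL15 line, and its 3 groups did not overlap. OLEO4 made up 14.0%, 12.1% and 14.9%, in the same order of lines. OLEO5 made up 6.93%, 7.92% and 4.89%, with the Napin:SCL15 libraries below all others. OLEO2 made up 15.0%, 15.4% and 14.3%. AT3G18570 held 0.511%, 0.545% and 0.562%, and AT1G48990 held 0.673%, 0.874% and 0.538%.

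Ratios between 2 oleosins are likewise free of library scaling, and they were described without a test. The first is that of OLEO1 to OLEO3, the closest pair by coding sequence. Its log2 value averaged 4.73 ± 0.23 in wild type (SD, n = 3), 4.03 ± 0.18 in the scl15 line and 5.66 ± 0.22 in the Napin:SCL15 line, and the 3 groups did not overlap. OLEO4 and OLEO3 had the most distant profiles of all oleosin pairs in these same data. The log2 ratio of OLEO4 to OLEO3 was 2.61 ± 0.31, 1.73 ± 0.28 and 3.57 ± 0.22 in the same order, again without overlap. The log2 ratio of AT1G48990 to AT3G18570 was 0.39 ± 0.19 in wild type and 0.68 ± 0.10 in the scl15 line, which overlapped, and -0.06 ± 0.11 in the Napin:SCL15 line, which did not overlap with wild type. Such separation was common among the oleosins. Of all 21 pairs, the ratio did not overlap with wild type for 12 in the scl15 line and for 17 in the Napin:SCL15 line. Each gene enters several pairs, so these counts are not independent observations. The share among pairs of all genes was not computed, so the counts do not set the oleosins apart from other genes.

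**Figure D4:**
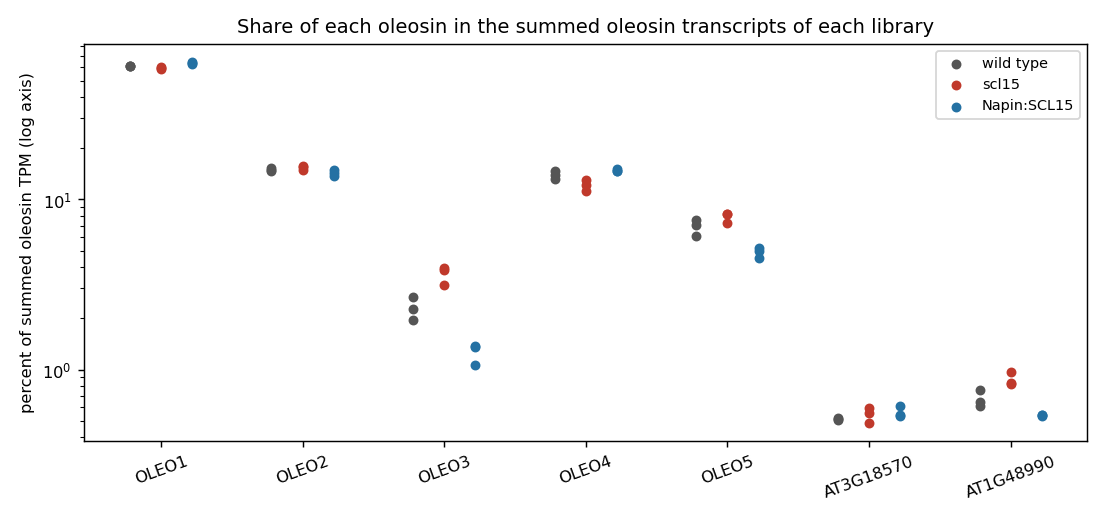
Share of each oleosin gene in the summed oleosin TPM of each library, in percent on a log axis; each point is a library of wild type, scl15 or Napin:SCL15 siliques. OLEO3 has its highest shares in the scl15 line (mean 3.66%) and its lowest in the Napin:SCL15 line (mean 1.26%), without overlap between the 3 groups.

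The remaining oleosins of the genome gave a further member of the seed and pollen branch that changed in both lines. AT2G25890 measured 299, 332 and 246 TPM in wild type, 173, 196 and 198 TPM in the scl15 line and 443, 575 and 507 TPM in the Napin:SCL15 line, with no overlap between groups. It fell in the scl15 line (log2 -0.62 (SE 0.14, adjusted p = 0.00748)) and rose in the Napin:SCL15 line (0.80 (SE 0.14, adjusted p = 0.00179)), and both calls held in all 20 other settings. Of the 10 oleosin genes listed besides the 7, 6 passed the filter on level, and these include genes known from the tapetum, the anther tissue that supplies the pollen coat. GRP17, a pollen coat oleosin, was at 6.07 ± 1.33 TPM in wild type, 15.7 ± 4.05 TPM in the scl15 line and 12.6 ± 2.43 TPM in the Napin:SCL15 line, and it rose in both lines (log2 1.23 and 0.95, adjusted p 8.85e-04 and 0.00561 with limma). The summed level of 4 anther and pollen marker genes was 3.66 to 8.19 TPM in wild type, 1.44 to 3.41 TPM in the scl15 line and 1.90 to 2.83 TPM in the Napin:SCL15 line. Most of it came from VGD1 and PPME1 (means of 2.81 and 2.40 TPM in wild type). AMS had higher means in both lines (0.216, 0.542 and 0.313 TPM in the same order). Its groups overlapped, and it was too low to be tested. The tapetum gene A9, also among the 4, was at 0 in every library.

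Among the other proteins of the oil body coat, 2 fell in the scl15 line and also rose in the Napin:SCL15 line, CLO2 and HSD5. Of 8 tested caleosins (calcium-binding coat proteins) and steroleosins (sterol-binding dehydrogenases), none rose and 2 fell in the scl15 line, with a median log2 fold change of 0.02 beside 0.10 for all genes. In the Napin:SCL15 line 3 rose and 3 fell, with a median of 0.15 beside -0.28. Among all genes, 9.18% rose and 6.31% fell in the scl15 line, and 1.68% rose and 23.4% fell in the Napin:SCL15 line. CLO2, a seed caleosin, was at 229.8 ± 3.40 TPM in wild type, 133 ± 5.11 TPM in the scl15 line and 327 ± 18.8 TPM in the Napin:SCL15 line, so that it fell in the scl15 line (log2 -0.79 (SE 0.10, adjusted p = 1.36e-04)) and rose in the Napin:SCL15 line (0.50 (SE 0.10, adjusted p = 0.00438)). CLO1, the main seed caleosin, was at 1195 ± 55.2, 980.0 ± 35.0 and 1663 ± 74.4 TPM in the same order. It rose in the Napin:SCL15 line (0.48 (SE 0.12, adjusted p = 0.0109)), while in the scl15 line its fold change was -0.29 (SE 0.12, adjusted p = 0.122). The steroleosin HSD5 rose in the Napin:SCL15 line (0.42 (SE 0.11, adjusted p = 0.0124)). It fell in the scl15 line (-0.40 (SE 0.11, adjusted p = 0.0198)), a call that ended without wild type replicate 1, wild type replicate 2 or scl15 replicate 3 (adjusted p 0.0592 to 0.0811).

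Against these, CLO3, a caleosin known for its induction by drought and abscisic acid, fell in the Napin:SCL15 line from 1025 ± 187 to 574 ± 73.4 TPM (log2 -0.83 (SE 0.16, adjusted p = 0.00307)). That call ended with median-ratio scaling (log2 -0.50, adjusted p = 0.078) and with quantile normalization (-0.61, adjusted p = 0.0559). Its log2 fold change in the scl15 line was 0.11 (SE 0.16, adjusted p = 0.701). HSD2, a low steroleosin, fell in the Napin:SCL15 line from 7.94 ± 1.19 to 4.26 ± 1.34 TPM (log2 -0.79 (SE 0.19, adjusted p = 0.0108)), a call that ended with each of the 3 other scalings (adjusted p 0.072 to 0.14) and without Napin:SCL15 replicate 2 (-0.62, adjusted p = 0.0543). HSD1 has a near-identical copy in the genome that may share its reads, and it varied from 173 to 838 TPM within wild type alone.

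Of 11 genes for droplet formation, coat and turnover, 2 fell and none rose in the scl15 line, and 1 fell and none rose in the Napin:SCL15 line, with medians of -0.14 and 0.06 beside 0.10 and -0.28 for all genes, of which 6.31% fell in the scl15 line and 23.4% in the Napin:SCL15 line. LDAP1, a coat protein best known from leaf lipid droplets, fell in the scl15 line from 124 ± 11.1 to 84.6 ± 1.70 TPM (log2 -0.54 (SE 0.11, adjusted p = 0.00446)). LDAP2 fell from 3.21 ± 0.994 to 1.06 ± 0.358 TPM (log2 -1.01 (SE 0.23, adjusted p = 0.00855)), a call that ended without wild type replicate 1 (-0.87, adjusted p = 0.0506). LDAP1 was the gene that fell in the Napin:SCL15 line (log2 -0.37 (SE 0.11, adjusted p = 0.0278)), which median-ratio scaling brought to -0.04 (adjusted p = 0.878). That call ended also without wild type replicate 1 or 2 or Napin:SCL15 replicate 1 or 2 (adjusted p 0.0767 to 0.0981).

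The enzymes that make the oil inside the coat were examined next. Of 12 genes of triacylglycerol synthesis, 2 rose and 1 fell in the scl15 line (median 0.09, beside 0.10 for all genes), and none rose and 6 fell in the Napin:SCL15 line (median -0.31, close to the -0.28 of all genes). The shares of all genes were 9.18% up and 6.31% down in the scl15 line. They were 1.68% up and 23.4% down in the Napin:SCL15 line. DGAT3, a soluble acyltransferase of the last step, was at 297 ± 25.8 TPM in wild type and 443 ± 21.7 TPM in the scl15 line, a rise of 0.58 (SE 0.12, adjusted p = 0.00538) on the log2 scale. In the Napin:SCL15 line it was at 205 ± 27.2 TPM, lower by a log2 value of -0.54 (SE 0.12, adjusted p = 0.00797), a call that ended with each of the 3 other scalings (adjusted p 0.14 to 0.322). FAD3, the desaturase that makes linolenic acid, fell in the scl15 line from 458 ± 35.7 to 323 ± 35.1 TPM (-0.51 (SE 0.12, adjusted p = 0.00929)), and in the Napin:SCL15 line its log2 fold change was 0.10 (SE 0.12, adjusted p = 0.547). PDAT1, which makes triacylglycerol from phospholipid, fell in the Napin:SCL15 line from 9.10 ± 0.596 to 5.27 ± 1.19 TPM (-0.70 (SE 0.16, adjusted p = 0.00777)). ROD1, which supplies unsaturated diacylglycerol, fell there from 34.1 ± 6.25 to 21.3 ± 2.29 TPM (-0.64 (SE 0.17, adjusted p = 0.0177)). Both falls ended with each of the 3 other scalings (adjusted p 0.0851 to 0.325), and that of ROD1 ended also without wild type replicate 1 or 3 or Napin:SCL15 replicate 2 (adjusted p 0.0547 to 0.076).

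In the comparison of the lines with each other, 6 of the 12 genes were lower in the Napin:SCL15 line, where 43.1% of all genes were lower. Higher there were 2 of the 12, beside 6.16% of all genes, and the median was -0.38 beside -0.38 for all genes. The lower genes were led by DGAT3 (-1.12 (SE 0.12, adjusted p = 9.92e-06)), ROD1 (-1.11 (SE 0.17, adjusted p = 1.78e-04)), PDAT1 (-0.78 (SE 0.16, adjusted p = 0.00141)) and GPAT9 (-0.77 (SE 0.12, adjusted p = 1.85e-04)), the acyltransferase of the first step. PDAT1 no longer passed when libraries were scaled by median ratio (-0.40, adjusted p = 0.09) or quantiles (-0.39, adjusted p = 0.103). The higher genes, named after their values were seen, were FAD3 (0.61 (SE 0.12, adjusted p = 9.38e-04)) and DGAT1 (0.54 (SE 0.14, adjusted p = 0.00593)), the main acyltransferase of seed oil.

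Regulators known to act on oleosin and other seed genes were also measured. Of 12 tested regulators of seed maturation, 4 rose and 1 fell in the scl15 line (median 0.15), and 2 rose and 1 fell in the Napin:SCL15 line (median -0.17). Among all genes tested, 9.18% rose and 6.31% fell in the scl15 line (median 0.10). In the Napin:SCL15 line 1.68% rose and 23.4% fell (median -0.28). ABI5, a bZIP factor of abscisic acid signalling, had the largest change in the scl15 line, from 22.7 ± 4.23 TPM in wild type to 5.39 ± 1.48 TPM (log2 -1.91 (SE 0.18, adjusted p = 9.99e-06)). It rose to 40.4 ± 4.77 TPM in the Napin:SCL15 line (0.81 (SE 0.18, adjusted p = 0.00686)). ABI3, a B3-domain factor of the RY motif, was at 32.8 ± 0.936 TPM in wild type and 35.0 ± 4.24 TPM in the scl15 line (log2 0.09 (SE 0.13, adjusted p = 0.726)), and it rose to 51.8 ± 7.69 TPM in the Napin:SCL15 line (0.63 (SE 0.13, adjusted p = 0.00503)). The rises of ABI3 and ABI5 in the Napin:SCL15 line and the fall of ABI5 in the scl15 line held in all 20 other settings.

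LEC1 and L1L, related subunits of a CCAAT-binding complex active in embryos, moved the other way from ABI5. LEC1 was at 1.64 ± 0.577 TPM in wild type and rose to 6.32 ± 0.912 TPM in the scl15 line (log2 1.49 (SE 0.24, adjusted p = 6.32e-04)), while at 0.882 ± 0.556 TPM in the Napin:SCL15 line it did not pass the test (-0.50 (SE 0.24, adjusted p = 0.13)). Its call in the Napin:SCL15 line appeared without Napin:SCL15 replicate 3 (-0.73, adjusted p = 0.0325). L1L rose in the scl15 line from 32.0 ± 10.4 to 61.1 ± 17.2 TPM (0.92 (SE 0.23, adjusted p = 0.0152)), a call that ended without wild type replicate 2, scl15 replicate 1 or scl15 replicate 3 (adjusted p 0.0696 to 0.0739). It fell in the Napin:SCL15 line (-0.89 (SE 0.23, adjusted p = 0.015)), a call that ended with each of the 3 other scalings (adjusted p 0.103 to 0.194) and without wild type replicate 3 or Napin:SCL15 replicate 2 (adjusted p 0.0633 and 0.0657). WRI1, which drives fatty acid synthesis genes, rose in the scl15 line (0.71 (SE 0.17, adjusted p = 0.0104)), a call that ended without scl15 replicate 1 or 3 (adjusted p 0.0575 and 0.0506). FUS3, a B3-domain factor, also rose in the scl15 line (0.77 (SE 0.23, adjusted p = 0.036)), but that call held in 10 of 20 other settings and ended without wild type replicate 1 or 2 or scl15 replicate 1 or 3 (adjusted p 0.0648 to 0.154). Of 6 repressors of seed genes, HDA19 among them, none passed the test in either line against wild type. The share of all genes that passed was 15.5% in the scl15 line and 25.1% in the Napin:SCL15 line.

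**Figure D5:**
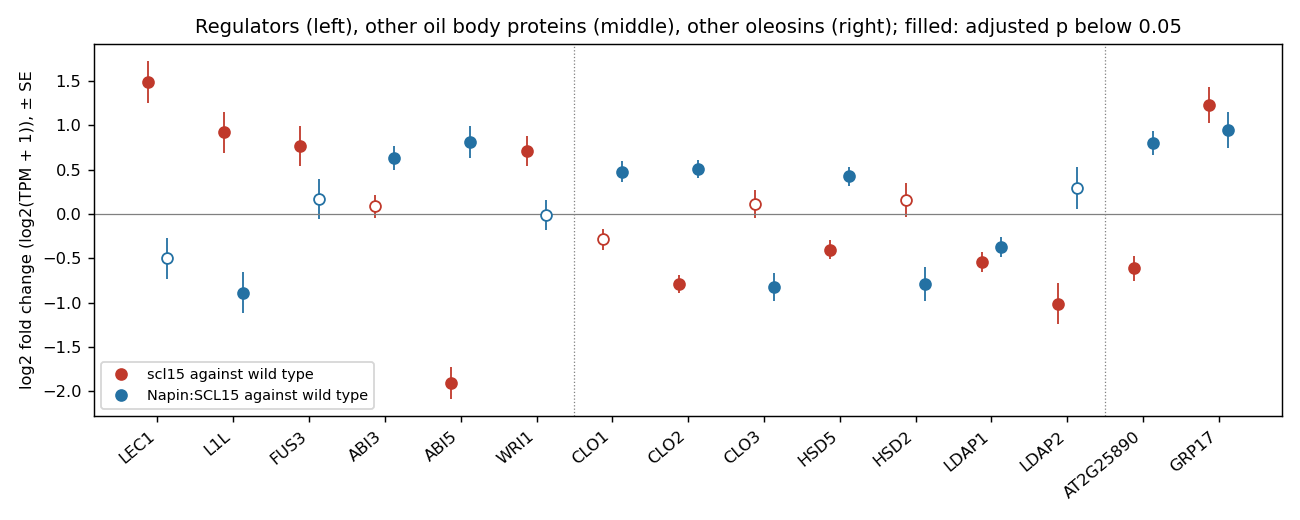
Log2 fold changes (vertical axis, on log2(TPM + 1), with the SE as bars) against wild type of 6 regulators of seed maturation, 7 other oil body proteins and 2 further oleosins in the scl15 line and the Napin:SCL15 line; filled points have an adjusted p below 0.05. ABI5, CLO2, HSD5 and AT2G25890 lie below 0 in the scl15 line and above 0 in the Napin:SCL15 line, and LEC1 and L1L lie the other way.

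Storage protein genes, the other large product of the maturing embryo, were also measured. Of 9 genes of 12S globulins and 2S albumins, 1 fell in the scl15 line and 2 rose in the Napin:SCL15 line, with medians of -0.04 and 0.41 beside 0.10 and -0.28 for all genes. Among all genes tested, 6.31% fell in the scl15 line and 1.68% rose in the Napin:SCL15 line. The 12S gene AT1G03890 fell in the scl15 line from 2026 ± 44.4 to 1326 ± 111 TPM (log2 -0.61 (SE 0.13, adjusted p = 0.00513)) and rose to 3235 ± 228 TPM in the Napin:SCL15 line (0.67 (SE 0.13, adjusted p = 0.00333)). CRA1, a 12S gene, had a log2 difference of 0.61 (SE 0.21, adjusted p = 0.0497) in the Napin:SCL15 line, a call that ended when any library but scl15 replicate 2 was left out (adjusted p 0.0543 to 0.132).

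For each oleosin, the 3 genes with the most similar profile over the 9 libraries were found by the root mean square difference of log2(TPM + 1) centred on each gene's mean, where the median gene lay 0.515 from OLEO1. The nearest to OLEO1 was the caleosin CLO1, at 0.0752, followed by AT1G15160 and the sterol methyltransferase SMT3. The nearest to OLEO4 was BETA-TIP, a water channel of the protein storage vacuole, at 0.0586, with CLO1 next at 0.0857. BETA-TIP had log2 fold changes of -0.53 in the scl15 line and 0.44 in the Napin:SCL15 line (adjusted p = 0.00915 and 0.019 with limma). Its call in the scl15 line ended without wild type replicate 1 (adjusted p = 0.0594), and that in the Napin:SCL15 line ended without wild type replicate 2 or 3 or Napin:SCL15 replicate 1 or 2 (adjusted p 0.0503 to 0.0676). OLEO2 had AT4G02360 and then OLEO1 as its nearest genes, and AT3G18570 had the seed gene ATS3 at 0.0717 and then OLEO1 at 0.0939. OLEO3 had no oil body gene among its nearest 3, which were ROPGEF1, TUB2 and AT3G56130. OLEO5 was nearest to ABCG20, at 0.0511, and AT1G48990 to AT1G54860 and the droplet coat gene LDAP3. Between the oleosins themselves, the distance was smallest for OLEO1 and AT3G18570 at 0.0939 and largest for OLEO3 and OLEO4 at 0.781.

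Neighbouring genes were checked for reads that could be shared. OLEO1, OLEO2 and OLEO5 each overlap the gene next to them on the opposite strand, by 44, 15 and 51 bases, and whether the counting used strand is not stated in the labels. The overlapping neighbours of OLEO1 and OLEO2 had group means of at most 1.22 and 0.235 TPM, which is far below the oleosins. AT3G01560, which overlaps OLEO5, had means of 21.3, 28.3 and 15.5 TPM in wild type, scl15 and Napin:SCL15 line against 2015 to 2242 TPM for OLEO5. The other 4 oleosins do not overlap a neighbour.

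Marker genes of other silique tissues also differed between the groups, and their part in the oleosin values was not tested. The summed level of 6 silique wall markers was 672 to 1057 TPM in wild type, 466 to 717 TPM in the scl15 line and 493 to 594 TPM in the Napin:SCL15 line, and most of it came from ADPG1 (720.3 ± 186 TPM in wild type). Members of this list went both ways in the scl15 line, where SHP1 and ADPG2 fell (log2 -1.33 and -1.04, adjusted p 1.19e-04 and 0.00905 with limma) and IND rose (0.56, adjusted p = 0.015). In the Napin:SCL15 line 3 of the 6 fell and none rose, where 23.4% of all genes fell and 1.68% rose. For 4 endosperm markers the sum was 3761 to 6257 TPM in wild type, 3030 to 3093 TPM in the scl15 line and 3749 to 8018 TPM in the Napin:SCL15 line, nearly all of it EPR1 (4667 ± 1374 TPM in wild type). Of the other 3 endosperm markers, SUC5, at 3.71 ± 1.04 TPM in wild type, rose in the scl15 line (log2 1.36, adjusted p = 3.01e-04) and fell in the Napin:SCL15 line (-0.79, adjusted p = 0.0116), and ZOU and PHE1 passed the test in neither line. For 4 seed coat markers the sum was 169 to 193 TPM, 208 to 251 TPM and 175 to 206 TPM in the same order, most of it TT10 (153 ± 9.94 TPM in wild type). Of the 3 seed coat markers tested, 1 rose in the scl15 line, where 9.18% of all genes rose. In the Napin:SCL15 line 1 fell, where 23.4% of all genes fell. None of these markers was at 0 in every library.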

How the data were processed

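TPM for 9 libraries were deposited by the authors as 1 table with a column per library, per the file headers. Per the labels' protocols, RNA was extracted with a plant RNA column kit and made into stranded Illumina libraries, and the build is TAIR 10 per the submitters' processing notes. Which aligner and counting tool were used, and whether strand was used, is not given in the sources used here. TPM keep no depth, so only the spread between libraries gives the precision. The fit draws each gene's spread toward a trend over all tested genes, so a p-value depends on those genes as well. A p-value covers no variation beyond these biological replicates.

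On log2(TPM + 1), tests were run with limma 3.58.1 (trend) in R 4.3.3, two-sided, in 1 fit over all 9 libraries with 3 contrasts and Benjamini-Hochberg adjustment. The pseudocount understates changes of low genes. Tested genes averaged 1 TPM or more. Sequences and positions came from RefSeq TAIR10.1, in which 97.7% of the genes were found. The upstream sequence of AT1G48990 is not reported here. Tables were made with Python 3.11.15 and pandas 2.3.3. The fit was tested on simulated data, with changes larger than any of the oleosins against wild type and no effect shared by replicate number. That run does not show how well changes of the oleosins' size are found. The oleosins and all lists were chosen with earlier results of these data known. Besides the oleosins and SCL15, the rule named up to 4 called genes per list and comparison by size of change, any regulator of seed maturation, the 3 nearest profiles and the neighbouring genes. Alternatives were other pseudocounts, filters and scalings, a replicate block, a fit of only 2 groups, no trend and libraries left out.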

Additional observations from a re-analysis of the deposited data

How the results depend on the processing

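Depth is unknown, TPM are relative to each library's total, and 3 libraries a group limit what differences of this size can pass the test. The number of changed oleosins in the scl15 line against wild type, 1 as reported, was 0 without a filter on low values, with quantile normalization, with TPM rescaled without storage proteins, with only 2 groups in the fit and with both replicates 3 left out, and 0 to 1 when single libraries were left out. In the Napin:SCL15 line against wild type, 2 as reported, it was 1 without a filter, with quantile normalization and with both replicates 3 left out, and 0 to 3 without single libraries. A count of 1 was not always the reported gene. In the scl15 line without scl15 replicate 2 it was OLEO3 as higher, and OLEO4 did not pass. In the Napin:SCL15 line without wild type replicate 2 it was OLEO3 as lower, and OLEO4 and AT3G18570 did not pass. The Napin:SCL15 count stayed at 2 with pseudocounts of 0.1 and 5 TPM and with only 2 groups in the fit. It was 3 in the settings that follow and with a replicate block. OLEO1 was added with a mean TPM of at least 5 (adjusted p = 0.038) and with limma without trend (adjusted p = 0.0455). OLEO2 was added with median-ratio scaling (adjusted p = 0.037) and with TPM rescaled without storage proteins (adjusted p = 0.0408). Between the lines, 5 as reported, the count was 3 without a filter, 4 with median-ratio scaling (OLEO3 lost), with quantile normalization and with both replicates 3 left out (OLEO2 lost in both), and 5 without any single library.

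Same-numbered replicates had correlated deviations of -0.06 to 0.35, above 0.1 for 7 of 9 pairs, so the numbers were not taken as pairs under the rule that all 9 exceed 0.1. In 16 of 18 cases a library correlated best with its own number in another group, a hint from the data and not from the labels. With a replicate block, 2 oleosins changed in the scl15 line and 3 in the Napin:SCL15 line, OLEO3 being added in both (adjusted p = 0.00513 and 0.00191), and the changed genes numbered 3442 and 5281.

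With other scalings, the 2564 changed genes of the scl15 line became 2283 to 2696. For Napin:SCL15 against wild type the 4149 became 1133 (median ratio), 1116 (quantile) and 1393 (rescaled without storage proteins), and between the lines the 8146 became 4602 and 4675 (median ratio and quantile). Without single libraries they were 1700 to 2812 in the scl15 line (main count 2564; 1700 without wild type replicate 1 and 1707 without scl15 replicate 1) and 2152 to 4402 in the Napin:SCL15 line (2152 without Napin:SCL15 replicate 2, 2744 and 2741 without wild type replicates 1 and 3). The summed oleosin level became 46659 TPM in wild type, 40216 TPM in the scl15 line and 70953 TPM in the Napin:SCL15 line after rescaling without storage proteins, 24096 and 49166 TPM in the scl15 line and the Napin:SCL15 line with median-ratio scaling, and 39110.4 TPM in the Napin:SCL15 line with quantile normalization.

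Changes of sign were confined to fold changes that did not pass the test as reported. For OLEO5 in the scl15 line the log2 value was 0.12 with quantile normalization and -0.199 to 0.086 without single libraries. In the Napin:SCL15 line it was 0.19 (median ratio) and 0.11 (rescaled), and between the lines it was 0.34 and 0.13 with these and -0.228 to 0.011 without single libraries. For AT1G48990 it was -0.011 in the scl15 line with both replicates 3 left out and -0.011 to 0.252 without single libraries, and -0.052 to 0.156 without them in the Napin:SCL15 line. Between the lines it was 0.34 (median ratio), 0.22 (quantile), 0.13 (rescaled) and 0.052 with both replicates 3 left out, and -0.199 to 0.055 without single libraries. ABI3 in the scl15 line was -0.016 with median-ratio scaling and -0.0086 to 0.145 without single libraries. WRI1 in the Napin:SCL15 line was 0.31 (median ratio), 0.30 (quantile) and 0.23 (rescaled) and -0.111 to 0.094 without single libraries, and FUS3 was -0.068 to 0.333 without them. The causes were not tested beyond what each alternative changes.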

Other observations

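Within each group, 6 of the 7 oleosins had their lowest level in replicate 2, in wild type, scl15 and Napin:SCL15 libraries alike; AT3G18570 was lowest in replicate 2 in wild type and in replicate 1 in both SCL15 lines. Of all genes tested, 9.76% were lowest in replicate 2 in every group, 2.46% in replicate 1 and 7.59% in replicate 3. OLEO5 had almost the same 3 low values, 1787, 1796 and 1811 TPM in replicate 2 of wild type, scl15 and Napin:SCL15, while its other libraries ran from 2058 to 2502 TPM. The labels do not say whether libraries of the same number were grown, harvested or prepared together.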
